A study of Homo sapiens with 6 samples.

Results

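A set of 9 genes of monoamine transport, monoamine breakdown and tryptophan metabolism was chosen by name in human EndoC-βH1 beta cells (EndoCBH1 in the labels): TPH1, DDC, SLC18A1, SLC18A2, SLC6A2, SLC6A4, MAOA, MAOB and TDO2. Of these 9 genes, 6 were analysed, among 16792 genes in all, and SLC18A1, SLC18A2 and MAOB were not analysed here. The 6 libraries form 2 groups of 3. In the siMNX1 group the cells had been transfected with siRNA against MNX1, which encodes a homeobox transcription factor, and their genotype is labelled MNX1 knock down. In the siNT group they had been transfected with a non-targeting siRNA, and their genotype is labelled WT. All libraries come from 1 cell line, derived from human fetal pancreas, and the labels give no time after transfection and do not say whether the replicate numbers mark separate cultures. The spread between libraries, and every p-value built on it, may therefore be technical. The study asked whether MNX1 keeps somatostatin off in human beta cells by repressing PERCC1.

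Serotonin is made from tryptophan in consecutive steps, hydroxylation by TPH1 (or by TPH2 in neurons) and decarboxylation by DDC. DDC also makes dopamine, the precursor of noradrenaline. Vesicular transporters load these amines into granules, plasma membrane transporters take them back up, and monoamine oxidases degrade them. TDO2 opens the ring of tryptophan and sends it into the kynurenine pathway instead. Beta cells can store serotonin and dopamine in insulin granules, and in mice beta cell serotonin rises during pregnancy.

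MNX1, the targeted transcript, was lower by a small amount. It had 1885, 1708 and 1751 normalized counts in siMNX1 replicates 1 to 3, against 2039, 2033 and 1988 in siNT replicates 1 to 3, without overlap between the groups. Normalized counts are the authors' values per gene, set against library size. The log2 fold change was -0.18 (SE 0.06), which did not pass the threshold of 0.05 on the adjusted p (limma, adjusted p = 0.116). Fold changes throughout are siMNX1 over siNT on the log2(value + 1) scale, which understates the change of low genes. Deposited totals were 18406479 to 18704645 per library. Since normalization sets these totals, they do not give depth. Steps in the low values gave rough estimates of 15300000 to 21900000 reads per library. The first principal component (29.4% of the variance) divided the groups, with siMNX1 at -23.42 to -18.12 and siNT at 20.04 to 22.85. On the second (20.1%) siMNX1 replicates 1 and 2 lay at opposite ends, at 29.4 and -31.7, with the other libraries between -2.66 and 2.40.

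The beta cell label was checked on markers. All 11 beta cell markers examined were measured, with INS at 125386 ± 5655 in siMNX1 and 110539 ± 3758 in siNT (SD, n = 3 each), whereas IAPP, SLC2A2 and NKX6-1 averaged at most 108 normalized counts in either group. Of the beta cell markers, limma called 4 higher with MNX1 siRNA (PCSK1, CHGA, UCN3 and MAFA) and 2 lower (IAPP and G6PC2). Over all genes, 1.99% were called higher and 1.33% lower. IAPP averaged 15.3 ± 3.76 in siMNX1 and 57.8 ± 16.1 in siNT, and G6PC2 8540 ± 237 in siMNX1 and 10966 ± 758 in siNT (SD, n = 3 each). Delta cell markers also moved with the groups, with 2 higher and 1 lower of the 4 measured of 5, beside the same shares. SST, which encodes somatostatin, averaged 858 ± 24.5 in siMNX1 and 220 ± 16.6 in siNT, the transcription factor gene HHEX 484 ± 24.4 in siMNX1 and 54.1 ± 10.6 in siNT, and RBP4 507 ± 54.5 in siMNX1 and 981 ± 26.8 in siNT (SD, n = 3 each). The 4 measured markers summed to 1959 to 2035 in siMNX1 against 1348 to 1404 in siNT. Their part in the values below was not tested. Of 8 markers of sympathetic or chromaffin cells 2 were analysed, and they summed to 73.7 to 99.9 in siMNX1 and 85.8 to 90.2 in siNT. Of 5 enterochromaffin markers 2 were analysed. CHGB, a granin also abundant in beta cells, was higher, at 9722 ± 324 in siMNX1 and 8117 ± 190 in siNT (SD, n = 3 each, log2 fold change 0.26, limma, adjusted p = 0.0138). REG4 was not called, at 15.4 ± 2.37 in siMNX1 and 18.0 ± 0.781 in siNT (SD, n = 3 each). Limma called 0 of the markers analysed for alpha, acinar, ductal and mesenchymal, endothelial or immune cells. Several of these were well measured, with siMNX1 means of 7403 for TTR, 1367 for KRT19, 1280 for CD68, 650 for IRX2 and 585 for CPA1. The siNT means were 7422, 1199, 1468, 793 and 591. LOXL4, KRT7 and COL1A1 averaged at most 32.0 in either group. In bulk RNA, fewer cells of a type and less RNA per cell cannot be told apart.

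Of the 6 analysed genes, TDO2 and SLC6A4 were higher, SLC6A2 was lower, and TPH1, DDC and MAOA were not called, by limma across all 16792 genes. That fit called 3.32% of all genes, 1.99% as higher and 1.33% as lower. The groups did not overlap for 4 of the 6 genes, 2 with siMNX1 above and 2 below, against 24.0% of all genes. The 9 genes were chosen with this comparison already known, so their values are a description, with no test attached, and nothing is read from the count. The median log2 fold change was -0.06 over the 6 genes and -0.0004 over all genes.

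**Figure D1:**
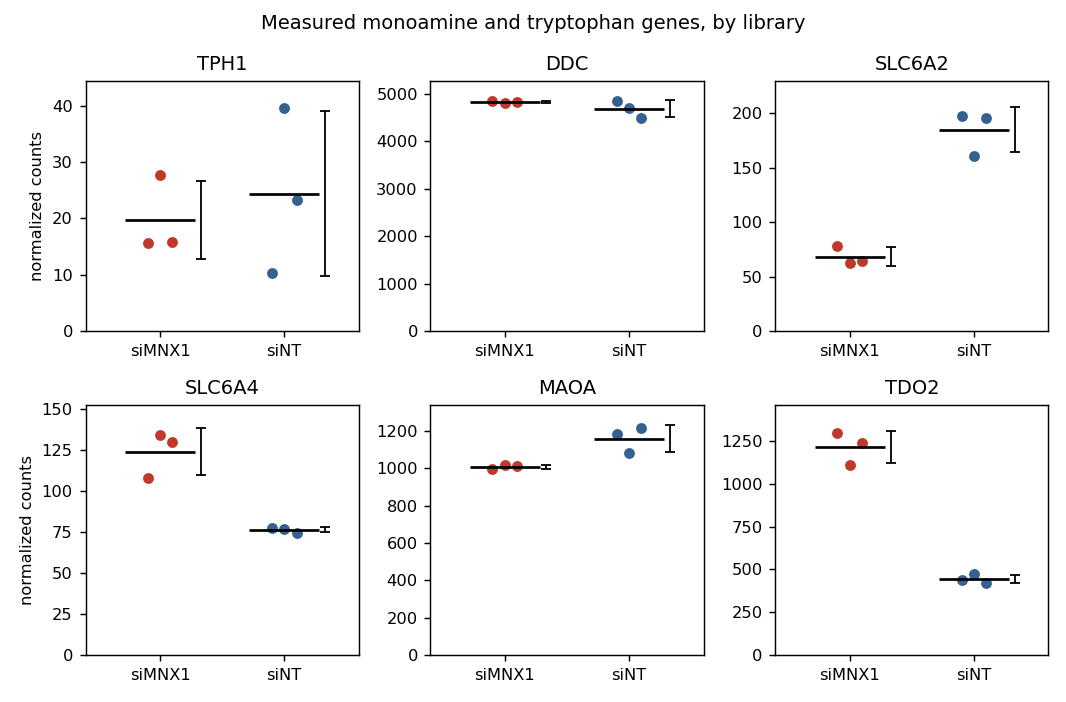
Normalized counts of the 6 analysed genes in each library, siMNX1 left of siNT, with each axis starting at 0. Points are libraries, the horizontal line is the group mean and the bar beside it is the SD (n = 3). TDO2 and SLC6A4 lie higher in every siMNX1 library, SLC6A2 and MAOA lie lower, and TPH1 and DDC overlap.

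The upstream sequences of TDO2, which had the largest rise among the 6 genes, and of TPH1, the entry enzyme of serotonin synthesis, are shown because they differ in the motifs searched. Each is the stretch from 250 to 11 bases before the RefSeq start (GRCh38.p14), chr4:155903446-155903685 on the plus strand for TDO2 and chr11:18046280-18046519 on the minus strand for TPH1. Capitals mark the homeodomain motif TAATTA, a palindromic form of the core that many homeodomains bind, and TATAAA, the TATA box core.
TDO2: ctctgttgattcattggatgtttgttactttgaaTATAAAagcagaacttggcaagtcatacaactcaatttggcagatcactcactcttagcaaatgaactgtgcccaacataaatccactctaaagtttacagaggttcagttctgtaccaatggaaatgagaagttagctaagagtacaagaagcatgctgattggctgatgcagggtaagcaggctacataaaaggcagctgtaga
TPH1: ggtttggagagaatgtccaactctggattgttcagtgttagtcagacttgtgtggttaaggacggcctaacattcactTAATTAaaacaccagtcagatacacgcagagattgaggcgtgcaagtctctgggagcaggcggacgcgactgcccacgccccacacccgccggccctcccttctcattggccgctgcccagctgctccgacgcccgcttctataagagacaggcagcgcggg

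Both strands were searched, for exact matches only. The TDO2 stretch held TATAAA 216 to 211 bases before the start and no TAATTA. The TPH1 stretch held TAATTA 172 to 167 bases before the start and no TATAAA. Near matches were not counted, such as tataag close to the end of the TPH1 stretch and cataaaa close to that of TDO2. Whether any of these sequences acts as a TATA box or is bound was not tested. The homeodomain motif occurred in 4.29% and the TATA box core in 10.6% of 35116 RefSeq promoter stretches of the same length, and in 2.16% and 5.99% of the 16653 of these that belong to genes analysed here. The motifs did not overlap each other. The corresponding stretches of DDC (from 2 starts), SLC6A4 and MAOA held neither motif. SLC6A2 had no entry among the RefSeq promoters used. The RefSeq starts differ from the gene bounds of GENCODE 29 given below. The TDO2 stretch lies inside the GENCODE bounds of TDO2 but in none of its exons, the TPH1 stretch lies outside those of TPH1, and the SLC6A4 and MAOA stretches lie wholly in exons of their genes. GC content was 39.6% in the TDO2 stretch and 57.1% in the TPH1 stretch.

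For both enzymes of serotonin synthesis the siMNX1 and siNT libraries overlapped. TPH1, the rate-limiting hydroxylase outside neurons (ENSG00000129167, chromosome 11, 18017564 to 18042426, minus strand, positions here and below on GRCh38) had 15.7, 27.7 and 15.9 normalized counts in siMNX1 replicates 1 to 3, against 10.3, 39.6 and 23.2 in siNT replicates 1 to 3. The siMNX1 values lay inside the siNT range, and siNT replicates 1 and 2 held the lowest and highest value of all 6. The log2 fold change was -0.16 (SE 0.46), and without siNT replicate 2 it was 0.27, so that no direction can be given. These values rest on roughly 9 to 42 reads per library.

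DDC, the aromatic amino acid decarboxylase (ENSG00000132437, chromosome 7, 50458436 to 50565457, minus strand), was abundant in every library. It had 4863, 4813 and 4826 normalized counts in siMNX1, against 4853, 4713 and 4501 in siNT. The groups overlapped, and the log2 fold change was 0.04 (SE 0.05). DDC overlaps in part with FIGNL1 on the same strand. FIGNL1 had 798 ± 48.9 in siMNX1 and 884 ± 111 in siNT (SD, n = 3 each), so some reads of either gene may have been assigned to the other. TPH1 stood at 0.00409 ± 0.00144 of the DDC value in siMNX1 and 0.00523 ± 0.00314 in siNT (ratio of normalized counts, SD, n = 3 each).

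The plasma membrane transporters of noradrenaline and serotonin went opposite ways. SLC6A2, the noradrenaline transporter (ENSG00000103546, chromosome 16, 55655604 to 55706192, plus strand), had 78.2, 62.4 and 64.6 normalized counts in siMNX1 replicates 1 to 3, against 197, 161 and 195 in siNT. Every siMNX1 library lay below every siNT library, and the gap between the groups was wider than the spread within either. The siMNX1 mean was 0.371 of the siNT mean, with a log2 fold change of -1.42 (SE 0.15). SLC6A2 stayed past the threshold in 14 of 14 alternative analyses of the same libraries, with log2 fold changes of -1.52 to -1.36. These alternatives describe how the value depends on processing. They are no test of a gene chosen with the comparison known.

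SLC6A4, the serotonin transporter (ENSG00000108576, chromosome 17, 30194319 to 30236002, minus strand), had 108, 134 and 130 normalized counts in siMNX1 replicates 1 to 3, against 77.4, 77.1 and 74.6 in siNT. Every siMNX1 library was higher than every siNT library, and the siNT values lay close together. The siMNX1 mean was 1.62 times the siNT mean, with a log2 fold change of 0.69 (SE 0.15). The call was lost in 7 of 14 alternative analyses, namely with any 1 of the 6 libraries left out and with a replicate block, while the log2 fold change stayed between 0.63 and 0.78.

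The balance of the transporters, taken within each library, thus differed between the groups. SLC6A2 stood at 0.725, 0.465 and 0.496 times SLC6A4 in siMNX1 replicates 1 to 3, against 2.55, 2.09 and 2.62 times in siNT (ratio of normalized counts). Per kb of exon the ratio averaged 0.719 ± 0.182 in siMNX1 and 3.09 ± 0.369 in siNT (SD, n = 3 each). SLC6A4 was the more abundant of these transporters in all 3 siMNX1 libraries per exon length, and SLC6A2 in all 3 siNT libraries. With the length of the longest transcript in place of the merged exons, SLC6A2 was above SLC6A4 in both group means, at 19.3 and 18.8 per kb in siMNX1 and 52.0 and 11.6 per kb in siNT.

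MAOA, which oxidises serotonin and noradrenaline on the outer mitochondrial membrane (ENSG00000189221, chromosome X, 43654907 to 43746824, plus strand), had 994, 1015 and 1014 normalized counts in siMNX1 replicates 1 to 3, against 1184, 1080 and 1213 in siNT. The groups did not overlap, with siMNX1 below, as for 12.1% of all genes. The siMNX1 mean was 0.870 of the siNT mean, with a log2 fold change of -0.20 (SE 0.06), and MAOA was not called in the fit or in any of its 14 alternatives.

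TDO2, which catalyses the first step of the kynurenine pathway and is best known from liver (ENSG00000151790, chromosome 4, 155854738 to 155920406, plus strand), rose to 1298, 1113 and 1236 normalized counts in siMNX1 replicates 1 to 3, against 440, 471 and 423 in siNT. The lowest siMNX1 library was above the highest siNT library by more than the spread within either group. The siMNX1 mean was 2.74 times the siNT mean, with a log2 fold change of 1.45 (SE 0.08). TDO2 stayed past the threshold in 14 of 14 alternative analyses of the same libraries, with log2 fold changes of 1.40 to 1.51. As for SLC6A2, this is a description and no test.

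Levels of different genes were compared per kb of merged exon length in GENCODE 29. In siMNX1 the order was DDC (1542 ± 8.25), TDO2 (231 ± 17.9), MAOA (182 ± 2.16), SLC6A4 (17.8 ± 2.04), SLC6A2 (12.5 ± 1.56) and TPH1 (3.51 ± 1.22 normalized counts per kb, SD, n = 3). In siNT it was DDC (1495 ± 56.5), MAOA (210 ± 12.7), TDO2 (84.5 ± 4.61), SLC6A2 (33.8 ± 3.75), SLC6A4 (10.9 ± 0.216) and TPH1 (4.34 ± 2.61 normalized counts per kb, SD, n = 3). Within either group no library of one gene reached into the range of its neighbour in the order. The order of SLC6A4 and SLC6A2 in siMNX1 depends on the length used, since the longest transcript puts SLC6A2 first (19.3 against 18.8 per kb). DDC lay at the 97.8th percentile of all genes with a length in siMNX1 and at the 97.6th in siNT. TDO2 lay at the 74.8th percentile in siMNX1 and the 49.9th in siNT, and TPH1 at the 3.44th in siMNX1 and the 5.06th in siNT. The sources used here do not give the lengths behind the authors' counting.

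**Figure D2:**
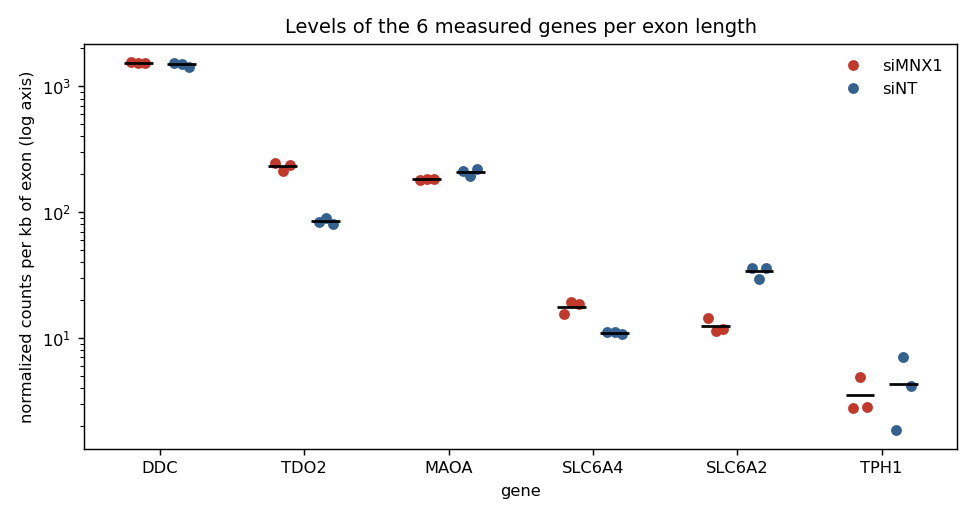
Normalized counts per kb of merged exons (log axis) for the 6 analysed genes, ordered by their siMNX1 mean, with siMNX1 left of siNT. Points are libraries and lines are group means (n = 3). DDC is highest in both groups, TDO2 is above MAOA in siMNX1 and below it in siNT, and SLC6A4 and SLC6A2 exchange places.

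Genes next to the 6 were then examined, within 250 kb. CTSO, which encodes the lysosomal protease cathepsin O, is the nearest measured gene to TDO2. It starts 3.71 kb past the end of TDO2 as the chromosome is numbered (chromosome 4, 155924118 to 155953917) and lies on the minus strand, so that the 3' ends face each other. CTSO rose to 362, 341 and 383 normalized counts in siMNX1 replicates 1 to 3, against 176, 217 and 163 in siNT (log2 fold change 0.97, SE 0.12, limma, adjusted p = 0.00318). Every siMNX1 library was above every siNT library, and CTSO passed in 14 of 14 alternatives (adjusted p from 0.00253 to 0.0384). GUCY1B1 and GUCY1A1, subunits of soluble guanylate cyclase on the other side of TDO2, had log2 fold changes of -0.41 and -0.12 and were not called. The sources used here do not say how strand was handled. Reads from beyond the annotated end of either TDO2 or CTSO could not be examined.

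ENSG00000278928 (AC136621.1 in GENCODE 29, chromosome 16, 55704119 to 55706422) overlaps the 3' end of SLC6A2 on the same strand and runs past it. It had 18.0, 28.4 and 31.4 normalized counts in siMNX1 replicates 1 to 3, against 50.3, 59.8 and 59.2 in siNT (log2 fold change -1.13, SE 0.25, limma, adjusted p = 0.0446). That is the direction of SLC6A2, and reads of overlapping genes on 1 strand cannot be told apart. The call was kept in 5 of 13 alternatives (adjusted p from 0.0383 to 0.162), and was lost with any 1 library left out, without the variance trend and with a replicate block. The other neighbours of SLC6A2, the matrix metalloproteinase gene MMP2 and the lysophospholipid acyltransferase gene LPCAT2, were not called by limma (log2 fold change -0.84, adjusted p = 0.0722, and -0.25, adjusted p = 0.226). Limma called 0 of the 5 neighbours of TPH1, 0 of the 4 of SLC6A4 and 0 of the 1 of DDC, and 0 of these had an unadjusted p under 0.05, a level that 18.4% of all genes passed. All 3 neighbours of SLC6A2 passed it, each with a negative log2 fold change, and 1 of the 3 of TDO2 (CTSO) did. No measured gene other than MAOA itself lay within 250 kb of MAOA.

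Other genes of the same pathways were taken from lists by role, with 48 of 98 genes analysed. Of these 48, 1 was higher (GCH1) and 2 lower (PCBD1 and ADRA2A) by limma, beside the 1.99% and 1.33% of all genes. The median log2 fold change was -0.01, against -0.0004 over all genes. At an unadjusted p under 0.05, 8 were higher and 6 lower, beside 9.81% and 8.56% of all genes. The groups did not overlap for 7 genes higher and 8 lower in siMNX1, against 12.0% and 12.1% of all genes.

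**Figure D3:**
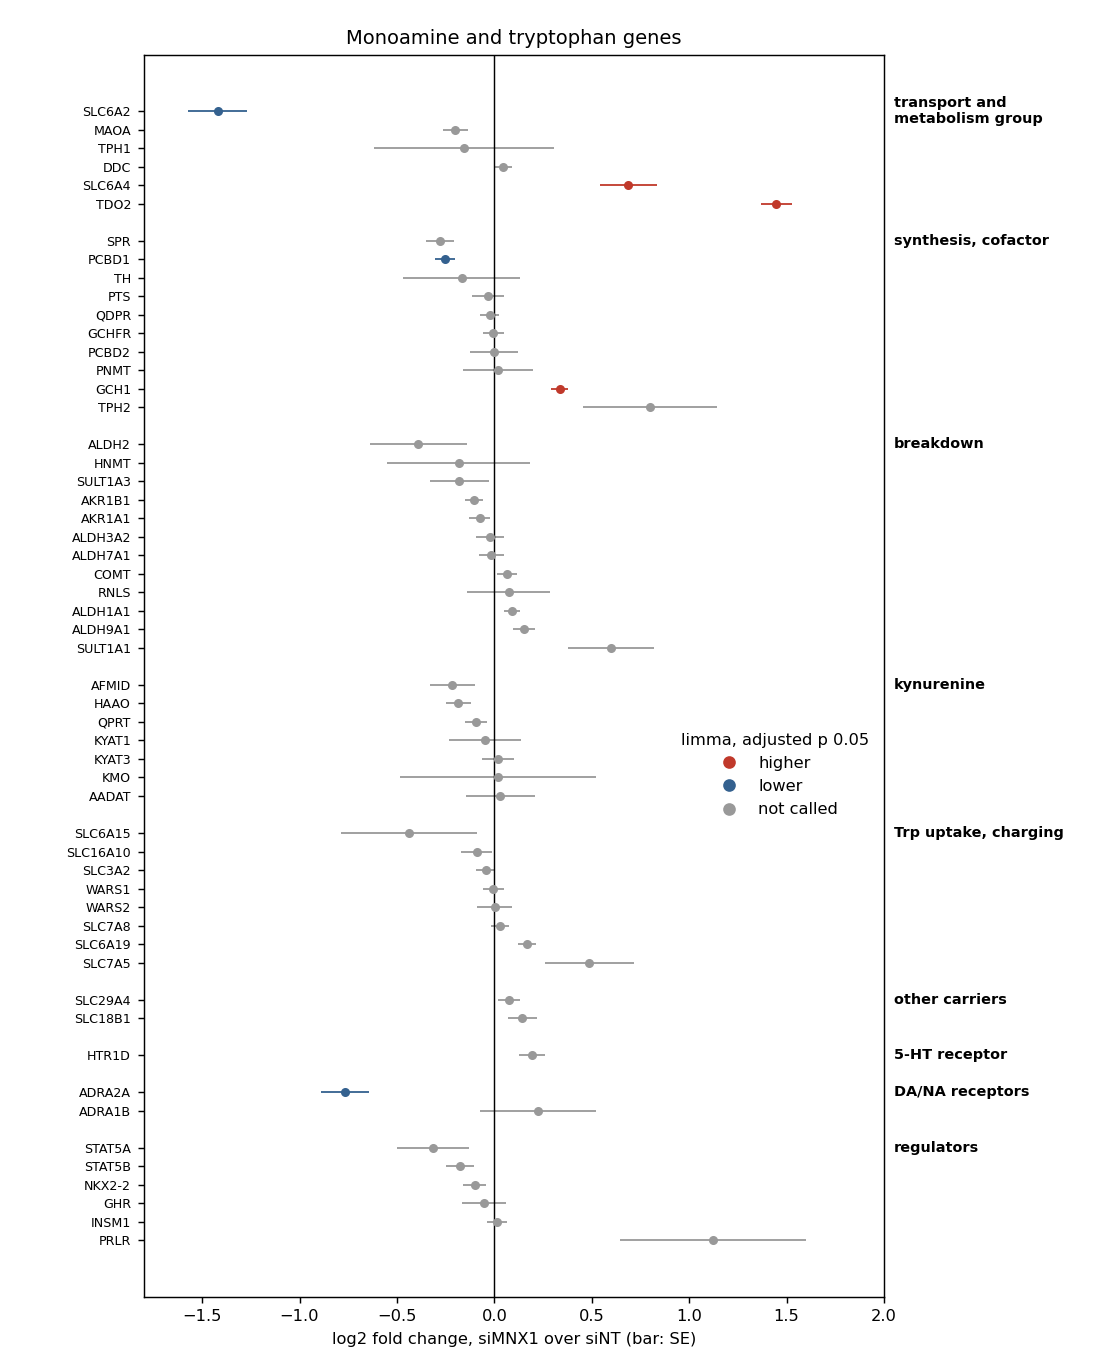
Log2 fold changes of siMNX1 over siNT (x axis, bars are SE) for the 6 analysed genes at the top and the 48 other pathway genes below, grouped by role. Colours mark genes called higher or lower by limma at an adjusted p of 0.05. TDO2 (1.45) and SLC6A2 (-1.42) lie farthest out, and most pathway genes lie near 0.

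Among the other genes of monoamine synthesis and its cofactor, 1 was higher and 1 lower of 10 analysed (2 and 2 at an unadjusted p under 0.05, which 18.4% of all genes passed). GCH1, which makes the first committed step to tetrahydrobiopterin, the cofactor of the tryptophan and tyrosine hydroxylases, rose to 3813, 3810 and 3797 normalized counts in siMNX1 replicates 1 to 3, against 2990, 3072 and 2992 in siNT (log2 fold change 0.33, SE 0.04, limma, adjusted p = 0.00356). The call was lost without the variance trend (adjusted p = 0.0564), at the end of a range that began at 0.00268. PCBD1, which recycles that cofactor, fell to 2206, 2121 and 2140 in siMNX1, against 2435, 2644 and 2635 in siNT (log2 fold change -0.25, SE 0.05, limma, adjusted p = 0.0351). Its call was lost in 7 of 14 alternatives, among them 5 of the 6 with a library left out (adjusted p from 0.0282 to 0.147 over all alternatives). Of the other cofactor enzymes, SPR (sepiapterin reductase) had a log2 fold change of -0.28 without a call (limma, adjusted p = 0.0742), and PTS, QDPR and PCBD2 had log2 fold changes of -0.03, -0.02 and -0.0006. SPR, PTS, QDPR and PCBD2, and TPH2 and TH below, are named after their values were seen.

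TPH2, the neuronal tryptophan hydroxylase, had few normalized counts, as TPH1 did. They were 17.4, 24.1 and 18.4 in siMNX1 replicates 1 to 3, against 8.47, 15.7 and 9.84 in siNT. The groups did not overlap, and the log2 fold change of 0.80 (SE 0.34) was not called (limma, adjusted p = 0.253). TH, which starts dopamine synthesis, averaged 22.7 ± 6.00 in siMNX1 and 25.5 ± 6.37 in siNT (SD, n = 3 each) and was not called either (limma, adjusted p = 0.814).

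Of 7 kynurenine pathway genes downstream of TDO2 or parallel to it, limma called 0. At an unadjusted p under 0.05 there was 1 (HAAO, named after its values were seen), beside 18.4% of all genes. QPRT, which feeds quinolinate into NAD synthesis, had the most normalized counts, not scaled by length. It stood at 2666 ± 68.4 in siMNX1 and 2850 ± 167 in siNT (SD, n = 3 each, log2 fold change -0.10, limma, adjusted p = 0.404). HAAO, which makes the precursor of quinolinate, had 693 ± 17.5 in siMNX1 and 788 ± 21.3 in siNT (SD, n = 3 each, log2 fold change -0.19, limma, adjusted p = 0.161). The summed normalized counts of the 7 genes, not scaled by length, were 4251 to 4402 in siMNX1 and 4496 to 4818 in siNT. QPRT makes up most of this sum. Log2 fold changes were above 0 for 3 of the 7 genes and below 0 for 4, so the sum does not show a fall of the whole pathway.

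Limma called 0 of 8 genes of tryptophan uptake and charging, with 1 at an unadjusted p under 0.05, beside 18.4% of all genes. SLC7A8, a carrier of neutral amino acids, had 5846 ± 31.2 in siMNX1 and 5733 ± 250 in siNT (SD, n = 3 each). Limma also called 0 of 12 genes of amine breakdown other than the oxidases, with 3 higher and 1 lower at an unadjusted p under 0.05, beside the 18.4% of all genes. ALDH1A1, an aldehyde dehydrogenase, had the most normalized counts of them, at 14343 ± 271 in siMNX1 and 13469 ± 259 in siNT (SD, n = 3 each, log2 fold change 0.09, limma, adjusted p = 0.253). Of 6 other monoamine carriers 2 were analysed. Limma called 0 of them, with 0 at an unadjusted p under 0.05, beside the same 18.4%. SLC29A4, a low-affinity plasma membrane monoamine transporter, had 4771 ± 145 in siMNX1 and 4537 ± 288 in siNT (SD, n = 3 each).

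Of 14 serotonin receptor genes 1 was analysed. HTR1D, an inhibitory receptor that lowers cyclic AMP, had 751, 782 and 744 normalized counts in siMNX1 replicates 1 to 3, against 685, 638 and 671 in siNT, without overlap and without a call (log2 fold change 0.19, limma, adjusted p = 0.160). Of 15 dopamine and noradrenaline receptor genes 2 were analysed, and ADRA2A was lower. ADRA2A, the inhibitory receptor through which noradrenaline restrains insulin secretion, fell to 114, 102 and 101 in siMNX1, against 185, 188 and 168 in siNT (log2 fold change -0.77, SE 0.12, limma, adjusted p = 0.0112). Its call was lost without siNT replicate 2 (adjusted p = 0.0601, within a range from 0.0101 over all alternatives).

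Of 6 regulators of monoaminergic genes analysed, limma called 0, with 1 higher and 1 lower at an unadjusted p under 0.05, beside the same 18.4%. INSM1, a zinc finger factor of neuroendocrine cells, had the most normalized counts, at 28379 ± 1520 in siMNX1 and 28104 ± 1268 in siNT (SD, n = 3 each). The groups overlapped, with a log2 fold change of 0.01 (limma, adjusted p = 0.918) that changed sign in 3 of 14 alternatives, so that no direction can be given. PRLR, the prolactin receptor through which pregnancy induces TPH1 in mouse beta cells and named after its values were seen, had 20.0, 44.8 and 24.8 in siMNX1, against 9.62, 26.2 and 7.33 in siNT, and was not called (limma, adjusted p = 0.249).

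**Figure D4:**
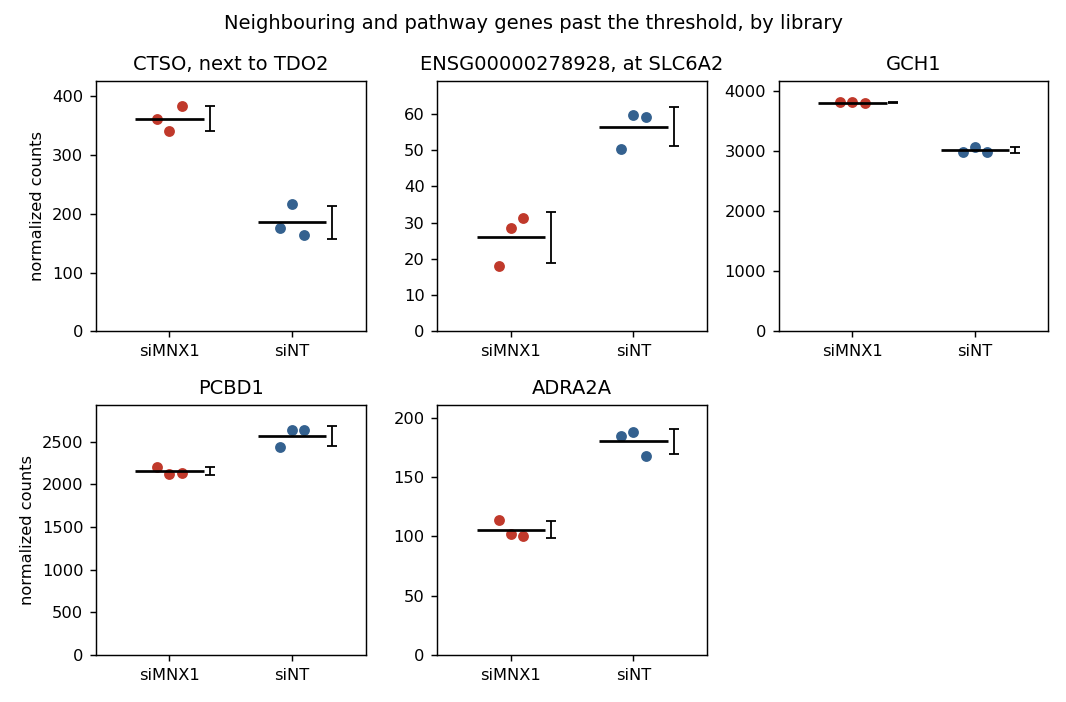
Normalized counts per library of the neighbouring and pathway genes past the threshold, siMNX1 left of siNT, with each axis starting at 0. Points are libraries, lines are means and bars beside them are SD (n = 3). CTSO and GCH1 lie higher in all 3 siMNX1 libraries, and ENSG00000278928, PCBD1 and ADRA2A lie lower.

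The genes with the most similar profile over the 6 libraries were listed for each of the 3 called genes, by Pearson's r of log2(value + 1). For TDO2 these were SCGN, which encodes the calcium-binding protein secretagogin (r = 0.996), the islet transcription factor gene RFX6 (0.996) and ZNF658B (0.996). RFX6 averaged 4565 ± 81.1 in siMNX1 and 2784 ± 14.8 in siNT (SD, n = 3 each, limma, adjusted p = 4.1e-05). For SLC6A4 they were ZNF33A (0.998), the presynaptic scaffold gene RIMBP2 (0.996) and ABHD15 (0.995). For SLC6A2 they were TNFAIP8 (0.999), the glutaminase gene GLS2 (0.998) and the sugar transporter gene SLC2A6 (0.998), none of which was called by limma (log2 fold changes -0.36, -0.15 and -0.28). The 6 libraries fall into 2 groups and share that division. Since r ignores the overall scale of a profile, a gene with a small difference between the groups can rank high. It does depend on how large that difference is beside the spread within the groups.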

How the data were processed

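RNA of 3 siMNX1 and 3 siNT libraries was compared, and groups and replicate numbers came from the titles. Per the labels' protocols, 5 ng of RNA per library entered the Ovation Solo kit, and ribosomal RNA was depleted. The authors deposited normalized counts, a non-negative signal with decimals for each gene. Per the submitters' processing notes the authors used DESeq2 1.26.0, DESeq, RSEM 1.3.1, STAR 2.7.6a and R 3.6.3 on GRCh38, in roles that are not stated. The sources used here do not give the annotation, the filter or the handling of strand.

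Of values under 10, 25.8% to 47.4% per library lay within 0.02 reads of a whole multiple of 1 step, so reads were not recovered, no count model was run and depth is known only roughly. Log2(value + 1) was fitted with limma 3.58.1 (R 4.3.3, variance trend), with Benjamini-Hochberg adjustment over 16792 genes and a two-sided threshold of 0.05. The lowest gene mean was 6.57. Symbols came from the table for 14738 genes and from a gene table for 417. Positions and lengths came from GENCODE 29 and promoters from RefSeq (GRCh38.p14). Python 3.11.15 was used for preparation. The fit was also run on data simulated from its own variance model, which checks the code and cannot test that model.

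The 9 genes and all lists were chosen with earlier results of these data known. One gene of the regulator list is not reported here, nor counted among the pathway genes. Besides the 9 genes and MNX1, the text names each list's genes past the threshold. Where none passed, it names the list's most abundant gene by mean normalized counts, not scaled by length. It also names the 3 genes of mean at least 50 most correlated with each called gene. Neighbouring genes are named for their position.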

Additional observations from a re-analysis of the deposited data

How the results depend on the processing

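Of 349 log2 fold changes of named genes recomputed under alternatives, 303 kept their direction and their side of the threshold, 41 lost a call, 0 gained one and 5 changed sign. The changes of sign were SLC7A8 without siNT replicate 1 (-0.0077), TPH1 without siNT replicate 2 (0.27), and INSM1 without siMNX1 replicate 2 (-0.027), siNT replicate 2 (-0.0017) or siNT replicate 3 (-0.008), and none of the 3 genes was called. With 1 library left out, the log2 fold change ran from -0.65 to 0.27 for TPH1, from -0.0077 to 0.048 for SLC7A8 and from -0.027 to 0.051 for INSM1, and the cause was not tested. Without the variance trend, 131 genes were higher and 60 lower, with 0 and 1 of the other pathway genes. With a replicate block, 162 were higher and 75 lower, with 1 of the 6 analysed genes higher and 1 of the other pathway genes lower. With 1 library left out, 133 to 257 genes were higher and 64 to 179 lower, 1 of the 6 analysed genes was higher in each case, and 0 to 2 of the other pathway genes were lower. The fits with fewer libraries have fewer samples. Same-numbered libraries showed no shared deviation (correlations -0.0377 to -0.00855), and 0 of 6 libraries correlated best with its own number. No pairing by number was seen in the values. This cannot tell whether same-numbered libraries were prepared together, which the labels do not say. TPH1 had no value with a minimum mean of 50. Other pseudocounts, the filter, scaling by a trimmed mean of log ratios, equal totals and a robust variance changed no call of a gene in the lists. Depth limits the precision of sparse genes such as TPH1 and TPH2, and intervals for counting error were not computed.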
